A study of Mus musculus with 18 samples.

Results

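The cells described here are those of embryonic day (E) 6.75 mouse embryos that hold transcripts of T (Brachyury), set against cells of the same libraries with none. They were chosen by measured values. Each cell had at least 10000 nuclear transcripts, at least 1 transcript of Pou5f1, and fewer than 5 transcripts per 10000 of the visceral endoderm genes Ttr, Apoa1 and Spink1 together. Of the 576 E6.75 barcodes in use, 451 reached the depth, 430 of these held Pou5f1 and 404 passed the visceral endoderm limit. A cell with 1 or more T transcripts was called T-positive (139 cells) and a cell with none T-negative (265 cells), out of 1728 barcodes in use in the whole series.

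All embryos were wild-type C57BL/6 mice, untreated. The 6 E6.75 libraries came from embryos whose extraembryonic part had been cut away and which were dissociated one by one, after which cells were picked by hand and made into CEL-Seq2 libraries. The 12 E7.5 libraries, used below for comparison, came from embryos trimmed below the chorion and pooled from 1 or 2 litters, whose cells were sorted by flow cytometry and processed with mCEL-Seq2. CEL-Seq2 primes each cell's polyadenylated RNA with a barcoded oligonucleotide that also carries a random tag, the UMI, by which copies of 1 transcript are recognised and counted once. The embryo of origin of each cell was not known here, so T-positive and T-negative cells of 1 library may come from different embryos. The part that this played was not tested. P-values measure how the difference between T-positive and T-negative cells varied from library to library. In the fits below, each gene's variance was also drawn toward that of the other genes tested.

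At gastrulation the pluripotent epiblast, a single epithelial layer, forms the primitive streak at its posterior side, where cells leave the epithelium and become mesoderm and definitive endoderm. NODAL signalling, which acts through SMAD proteins with the co-receptor Tdgf1 (Cripto), and WNT3, which acts through beta-catenin, set up the streak. T, a T-box transcription factor, is a direct target of WNT signalling and marks the streak and the mesoderm that leaves it. Eomes, a related T-box factor, and Mixl1, a homeobox factor, mark the streak and the mesendoderm.

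The share of T-positive cells differed widely between libraries. In library 1_10 it was 14.5% of 62 kept cells, in 1_11 19.0% of 63, in 2_12 19.7% of 61, in 2_9 29.1% of 55, in 2_14 53.0% of 83 and in 2_13 57.5% of 80. The mean was 32.1% ± 18.6 (SD, n = 6). The exact binomial 95% intervals, which cover counting error only, ran from 41.7% upward in 2_14 and from 45.9% upward in 2_13, and reached at most 42.9% in the other libraries (2_9). Libraries 2_13 and 2_14 thus hold 90 of the 139 T-positive cells, as 46 and 44.

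The number of T transcripts in a T-positive cell was often small. There were 44 cells with 1 transcript, 36 with 2 to 4 and 59 with 5 or more, so the 44 lie just inside the limit and the 265 cells at 0 just outside. The highest values were 113 in a cell of 2_13 and 100 in a cell of 2_14, against 18 to 31 in the other libraries. Summed over the T-positive cells, T stood at 83.2 to 101 CPM (transcripts of the gene scaled to a common total of nuclear transcripts, with no length correction) in 1_10, 1_11, 2_12 and 2_9, and at 294 and 319 in 2_13 and 2_14. These values follow from the rule and carry no test. When every cell was thinned to 10000 transcripts before the gate, the mean share fell to 18.6%. Among 42 E6.75 cells that reached 10000 transcripts but exceeded the visceral endoderm limit, 4 held T (9.52%, exact 95% interval 2.66% to 22.6%), at a median depth of 25955 transcripts, against 34.4% of the kept cells, whose median depth was 52060.

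**Figure D1:**
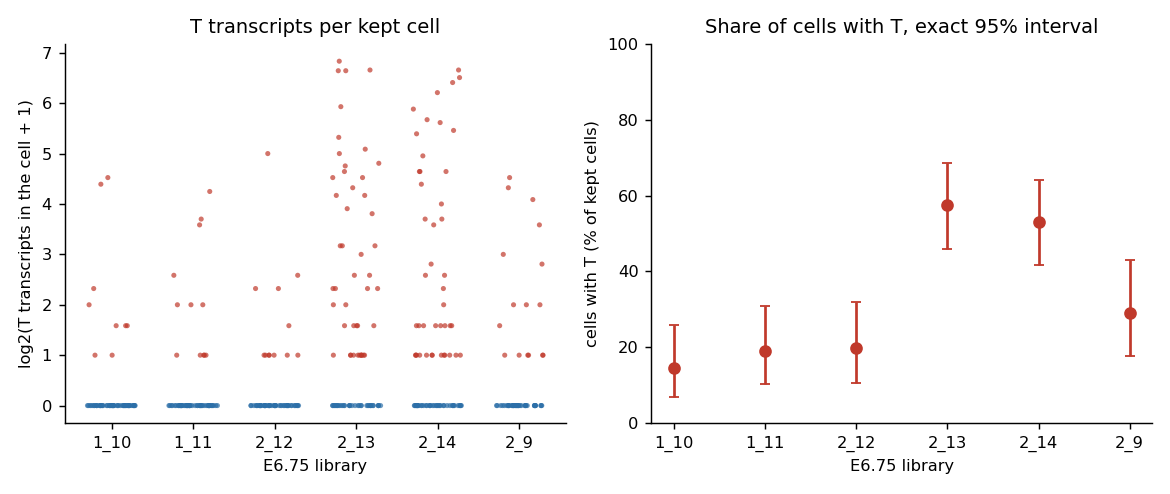
Left, log2(T transcripts + 1) in each of the 404 kept cells by library (red, T-positive; blue, T-negative; 1 point per cell). Right, the share of kept cells with T in percent, with its exact 95% binomial interval, which is highest in 2_13 (57.5%) and 2_14 (53.0%).

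Both groups were read against their labels. Pou5f1, the pluripotency factor whose presence was required, averaged 394 ± 102 CPM in T-positive and 435 ± 114 in T-negative sums (SD, n = 6), and was lower in the T-positive sum of every library except 2_12. Summed over the 6 visceral endoderm markers that the rule did not use, the level was 1.68 to 13.01 in T-positive and 5.03 to 13.9 in T-negative sums. The 6 extraembryonic ectoderm markers summed to 42.8 to 119 and 61.6 to 125, the 6 primordial germ cell markers to 6.86 to 44.5 and 7.59 to 18.04, and the 4 blood markers to at most 1.68 and 3.32 CPM. In each of these 4 marker lists the ranges of the groups overlapped. The extraembryonic ectoderm sum was mostly Wfdc2, at 85.7 CPM on average in T-negative sums. Elf5 averaged 3.32 there and reached 14.2 in the highest library. A limit of 2 transcripts per 10000 of Elf5, Wfdc2, Rhox6 and Rhox9 together kept 135 of the 139 T-positive and 239 of the 265 T-negative cells. The overlap of the sums therefore does not show that both gates held such cells alike. When the comparison described below was refitted without the cells over that limit, 364 of 9500 genes passed. Among them were 320 of the 332 genes of the main fit. With visceral endoderm genes at 0, 168 of 7845 genes passed, 150 of them among the 332. The part of primordial germ cells and blood cells was not tested.

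The sums ranged from 582812 to 2921722 transcripts per library and gate. Depth per cell was not shown to differ between the gates: the difference in median log2 transcripts was 0.24 ± 0.49 (SD, n = 6), with an exact two-sided sign-flip permutation p of 0.4375 (adjusted p = 0.875 over 6 measures; the smallest p possible is 0.03125). The gap was widest in 1_10 and 2_9, where the T-positive median was 72495 and 68749 transcripts and the T-negative median 40864 and 36493. Genes found at 10000 transcripts, the mitochondrial share, the ERCC share and the shares of cells with a Y-linked or an Xist transcript gave exact permutation p-values between 0.125 and 1, with adjusted p of at least 0.75. The median ERCC share was 0 in both gates of 2_9, 2_12, 2_13 and 2_14. Its test therefore rested on 1_10 and 1_11 alone and could not give a low p. Fewer transcripts of a gene per cell and fewer cells holding it cannot be told apart in sums. The barcode numbers of the libraries overlapped by 0, 48 or 96 of 96. No pair of libraries held the same counts (chi-square per degree of freedom of at least 3.47), and 2_13 and 2_14, the closest pair, used no barcode number in common.

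The first question was which genes differ between T-positive and T-negative cells of the same library at E6.75. T-positive cells held more of several streak factors (Mixl1, Eomes, Evx1), of the ligands Wnt3 and Nodal and of the NODAL co-receptor Tdgf1, and less of several epiblast and epithelial genes (Utf1, Otx2, Cdh1). Of 9593 genes tested, 332 passed an adjusted p of 0.05 (3.46%), 201 higher (2.1%) and 131 lower (1.37%) in T-positive cells, by limma's moderated test with the library as a block. The median log2 fold change over all genes tested was 0.0095. Of the 332 genes, 207 had the same sign in all 6 libraries. The groups did not overlap at all for 75 of them, against 91 genes of 9593 (0.949%) over all genes tested. A change of more than 1 on the log2 scale was found for 87 of the higher genes and 18 of the lower. Without 2_13 there were 212 calls, without 2_14 there were 187, and without both 102 of 8902 genes tested. Of the 332 genes 318 could still be tested without both, 317 of these kept their sign and 83 passed again.

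**Figure D2:**
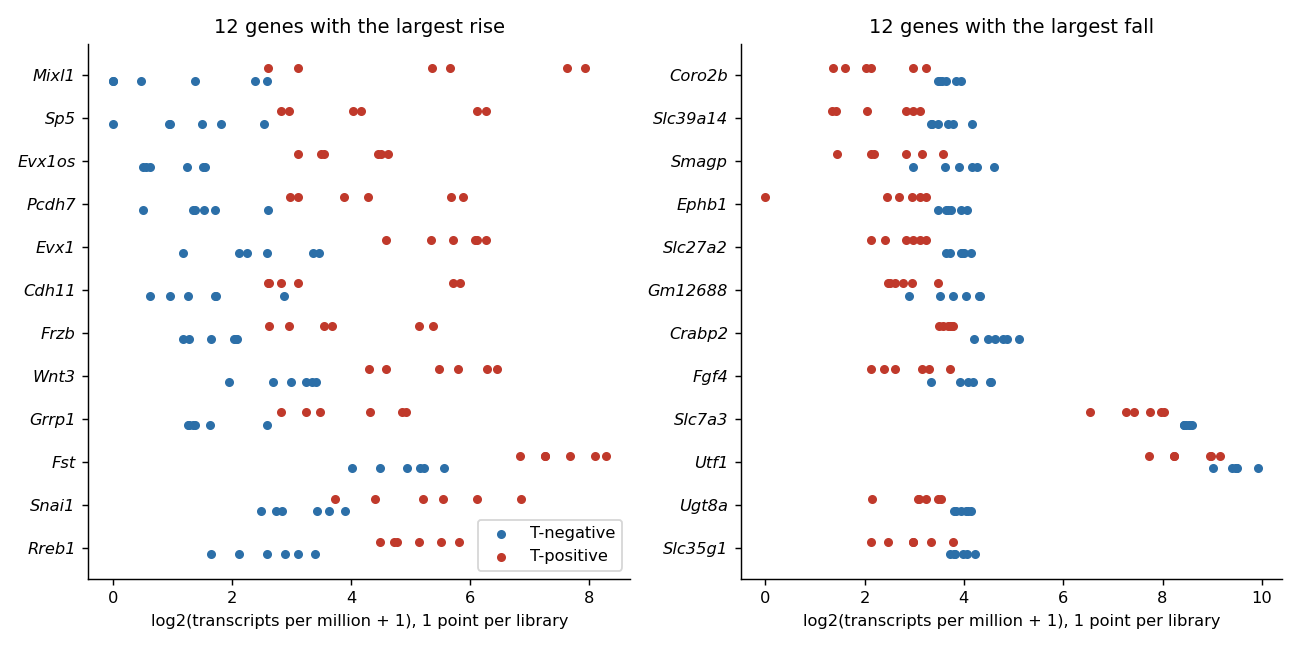
The 12 genes with the largest rise (left) and the largest fall (right) among those that passed, had 1 sign in every library and averaged at least 10 CPM in the higher group. Each point is 1 library on a log2(CPM + 1) scale, red for T-positive and blue for T-negative sums. The fitted log2 fold change is largest for Mixl1 (5.39). Its lowest T-positive value (5.05 CPM, 1_11) nearly meets its highest T-negative one (5.01, 2_13). Mixl1, Sp5, Evx1os, Pcdh7, Cdh11, Frzb and Grrp1 averaged under the low-count filter's level in T-negative sums, as Coro2b and Slc39a14 did in T-positive sums.

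The named genes with the largest rises included streak transcription factors. Of 17 in the list, 9 could be tested and 8 were higher (Mixl1, Sp5, Lhx1, Evx1, Snai1, Gsc, Sp8 and Eomes). For this and each list below, the share over all genes tested was 2.1% higher and 1.37% lower. Of the 9, Mixl1, Sp5, Lhx1 and Gsc averaged under the filter's level of 4.68 CPM in T-negative sums. Mixl1 and Sp5 reached that level in every T-positive sum and entered the test through them, where they were higher. Lhx1 and Gsc reached it in some sums of both gates, with their highest values in T-positive sums. The count therefore does not support a statement on the list. Without 2_13 and 2_14, Eomes, Evx1, Sp8 and Snai1 passed, of 5 tested. Mixl1 was at 7.64 CPM in the T-positive cells of 1_10, 5.05 in 1_11, 49.8 in 2_12, 39.9 in 2_9, 244 in 2_13 and 197 in 2_14. The T-negative sums of the same libraries held between 0 and 5.01, so the groups did not overlap, although 1_10 and 1_11 rest on 5 and 3 transcripts. The fitted log2 fold change of Mixl1 was 5.39 (SE 0.32, limma adjusted p = 5.3e-10).

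Eomes was present in both gates and stepped up in each library. It stood at 263, 297, 498, 352, 776 and 617 CPM in the T-positive cells of 1_10, 1_11, 2_12, 2_9, 2_13 and 2_14, and at 124, 74.6, 102, 221, 135 and 117 in their T-negative cells. The lowest T-positive value exceeded the highest T-negative one. Its log2 fold change was 1.91 (SE 0.17, limma adjusted p = 7.3e-08). At 10000 transcripts per cell, Eomes was found in 86.4% ± 10.4 of T-positive and 51.2% ± 6.45 of T-negative cells (SD over 6 libraries), and without thinning in 97.2% and 86.2%. Visceral endoderm also holds Eomes, which after thinning was found in 83.3% of the 42 visceral endoderm gate cells. Mixl1 was found in 29.98% of T-positive, 1.77% of T-negative and 31.0% of visceral endoderm gate cells.

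Evx1, an even-skipped homeobox factor of the posterior streak, rose in all libraries, from 5.44 ± 3.48 to 54.1 CPM on average, with a log2 fold change of 3.33 (SE 0.30, limma adjusted p = 9.7e-08). Its neighbour Evx1os, transcribed from the opposite strand, rose by 3.73. Evx1os averaged 1.10 CPM in T-negative sums, under the filter's level of 4.68 CPM, and reached that level in every T-positive sum. It so entered the test through the group where it was higher. The use of strand in counting is not given in the sources used here, so reads of Evx1 and Evx1os cannot be told apart. Snai1, the repressor of E-cadherin that drives the epithelial to mesenchymal transition, was at 12.2, 20.2, 36.0, 45.8, 114 and 68.0 in T-positive and 4.61, 6.19, 5.70, 13.9, 11.4 and 9.70 in T-negative cells of 1_10, 1_11, 2_12, 2_9, 2_13 and 2_14. It was higher in 6 of 6 libraries, though the ranges overlapped, with a log2 fold change of 2.58 (SE 0.21, limma adjusted p = 5.6e-08). After thinning, Snai1 was found in 29.9% of T-positive and 8.50% of T-negative cells, beside 9.52% of the 42 visceral endoderm gate cells.

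Lhx1 and Mesp1 were confined, among the T-positive sums, to libraries 2_13, 2_14 and 2_9. Lhx1, a LIM homeobox factor of anterior mesendoderm, stood at 153 CPM in 2_13, 193 in 2_14 and 12.7 in 2_9, and at 0 in the T-positive cells of 1_10, 1_11 and 2_12, whose T-negative cells held 2.77, 1.16 and 0.95. Its log2 fold change of 3.77 (limma adjusted p = 3.6e-06) thus rests on 3 libraries. In the other 3 the T-negative values came from 6, 3 and 2 transcripts, in sums larger than the T-positive ones. These are too few to give a direction there. Mesp1, the first factor of cardiac and cranial mesoderm, was at 148, 81.8 and 9.34 in the T-positive and 4.10, 2.11 and 0.54 in the T-negative cells of 2_13, 2_14 and 2_9, with no transcript in the others. It did not pass the filter on low counts and was not tested. Mesp2 was seen in 2_13 and 2_14 only, at 20.2 and 14.5 in T-positive cells.

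Foxa2, the forkhead factor of endoderm and axial mesoderm, rose in every library by a log2 fold change of 2.16 (SE 0.29, limma adjusted p = 3.4e-05). Its T-positive values were 9.17 in 1_10, 8.42 in 1_11, 130 in 2_12, 81.5 in 2_9, 134 in 2_13 and 103 in 2_14, against 3.23, 0.39, 4.27, 45.5, 18.7 and 29.96 in T-negative cells. Library 2_12, which held no Mesp1, therefore had a Foxa2 level close to that of 2_13. After thinning, Foxa2 was found in 23.3% of T-positive and 6.51% of T-negative cells, and in 59.5% of the visceral endoderm gate cells. Gsc, a homeobox factor of the organizer, rose by 2.25 but was lower in the T-positive cells of 1_11. Of 46 T-positive cells in 2_13, 18 held Mesp1, 28 held Foxa2 and 10 held both. Of the 44 in 2_14, 13 held Mesp1, 13 Foxa2 and 4 both. In 2_9 the counts were 4, 8 and 2 of 16 cells. Among the 34 T-negative cells of 2_13, 8 held Mesp1, 7 held Foxa2 and 1 held both. In 2_14 the T-negative counts were 3, 8 and 1 of 39 cells, and in 2_9 they were 1, 8 and 0 of 39. When cells with Mesp1 or Foxa2 were left out of both gates, 105 of 8507 genes passed, and 93 of the 332 genes passed again.

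Among WNT genes, 7 of the 21 tested were higher and 3 were lower, with a median log2 fold change of 0.15. Of the 7, Wnt8a, Sp5 and Frzb averaged under the filter's level of 4.68 CPM in T-negative sums. They reached it in every T-positive sum and so entered the test through the group where they were higher. The count of higher genes therefore does not support a statement on the list. Without 2_13 and 2_14, 3 of 19 were higher (Wnt3, Wnt8a and Axin2) and none was lower, and Sp5 and Frzb were not tested. The ligand Wnt3, which is needed for the streak to form, was at 22.9, 43.8, 54.9, 18.7, 76.7 and 86.5 CPM in T-positive cells of 1_10, 1_11, 2_12, 2_9, 2_13 and 2_14, and at 2.85 to 9.68 in T-negative cells. The groups did not overlap, and the log2 fold change was 2.87 (SE 0.25, limma adjusted p = 9.7e-08). Wnt8a, another ligand, rose by 2.13. The transcriptional targets Sp5, Axin2 and Nkd1, of which the last 2 restrain the pathway, rose by 4.06, 1.88 and 1.27, and Lef1, a nuclear partner of beta-catenin, by 0.61. Frzb, a secreted inhibitor of WNT, rose by 2.96 in contrast to the related inhibitors Sfrp2 and Sfrp1, which fell by 0.70 and 0.62. Tcf7l1, a nuclear repressor of WNT targets, fell by 0.34 (limma adjusted p = 0.00088). Wnt3a and Dkk1 were too low to test, at averages of 0.61 and 4.15 in T-positive and 0 and 1.03 in T-negative sums.

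Sp5, a zinc finger factor induced by WNT, was at 6.11, 6.74, 15.4, 17.0, 68.1 and 75.9 CPM in T-positive cells of 1_10, 1_11, 2_12, 2_9, 2_13 and 2_14, against 0 to 4.82 in T-negative cells. The sequence before its start site is shown because it holds a match to the letters CTTTGAT, the core bound by LEF/TCF factors. It is the window of 250 bases upstream of the RefSeq start on build GRCm38.p6, chr2:70474673-70474922, plus strand, with the match in capitals.

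Sp5 upstream window: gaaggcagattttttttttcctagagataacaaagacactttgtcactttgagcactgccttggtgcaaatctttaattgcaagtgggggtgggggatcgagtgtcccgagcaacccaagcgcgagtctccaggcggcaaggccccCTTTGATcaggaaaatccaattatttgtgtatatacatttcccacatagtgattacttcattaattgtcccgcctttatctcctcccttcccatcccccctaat

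Searched on both strands, CTTTGAT was found in 3.21% of all 32851 windows of this length, and TCACACC, part of the T-box motif, in 3.33%. Of the 12 genes with the largest rise, 9 had a window, of which 1 held CTTTGAT (Sp5) and none held TCACACC. Of the 12 with the largest fall, 8 had a window, of which 1 (Ugt8a) held the first of these motifs and none held the other. Windows were found for 155 of the 201 genes called higher (77.1%) and for 99 of the 131 called lower (75.6%), under the 80% needed, so the comparison of motif shares between them is void. A match is a description of letters and not a binding site.

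Of 16 NODAL pathway genes tested, 4 were higher (Tdgf1, Lefty2, Nodal and Pmepa1) and none lower, and the list's median was -0.02. The co-receptor Tdgf1 was at 555, 492, 450, 395, 564 and 651 CPM in T-positive and 291, 213, 173, 274, 260 and 202 in T-negative cells of 1_10, 1_11, 2_12, 2_9, 2_13 and 2_14. No value overlapped, and the log2 fold change was 1.16 (SE 0.10, limma adjusted p = 5.6e-08). The ligand Nodal rose in 6 of 6 libraries by 0.87 (SE 0.11, limma adjusted p = 8.6e-06), from 51.7 ± 13.9 to 96.3 on average. Lefty2, an inhibitor of NODAL that its signalling induces, rose by 0.96, though not in 1_10 (68.8 in T-positive against 72.4 in T-negative cells), and without 2_13 and 2_14 it no longer passed (0.32, limma adjusted p = 0.62). Pmepa1, an inhibitor of SMAD signalling, rose by 0.43. Lefty1, which is made mainly in anterior visceral endoderm at this stage, was at 10.3 and 9.85 CPM on average and did not pass (limma adjusted p = 0.97). Fst, an activin antagonist outside the list, was among the 12 largest rises, at 113 to 309 in T-positive and 15.2 to 46.1 in T-negative cells.

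FGF pathway genes moved in both directions: 4 of 15 tested were higher and 3 lower, with a median of -0.10. Without 2_13 and 2_14, Fgf8 was the 1 gene of 15 higher and Dusp4 the 1 lower. Fgf8, the ligand needed for cells to leave the streak, rose by 1.26 (SE 0.19, limma adjusted p = 0.00016), from 26.1 ± 12.7 to 64.3 CPM. Fgf4, a ligand of the pluripotent epiblast, was at 12.2, 3.37, 5.15, 4.24, 8.90 and 7.86 in T-positive and 17.1, 22.04, 22.3, 9.10, 14.1 and 16.03 in T-negative cells of 1_10, 1_11, 2_12, 2_9, 2_13 and 2_14. It was lower in 6 of 6 libraries, by a log2 fold change of -1.05 (SE 0.25, limma adjusted p = 0.015), on as few as 2 transcripts in 1_11. Fgf5, the ligand that marks primed epiblast, did not pass, with 177 and 204 on average (limma adjusted p = 0.13). Of the feedback inhibitors, Spred1, Il17rd and Dusp6 rose by 0.66, 0.53 and 0.36, and Dusp4 and Spry1 fell by 0.82 and 0.57.

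BMP genes had 4 of 13 higher (Msx1, Id1, Smad6 and Smad1), none lower and a median of 0.39. Smad1 was at -0.031 when cells with Mesp1 or Foxa2 were left out. Id1, a direct BMP target that blocks bHLH factors, was at 142, 110, 117, 84.5 and 154 in T-positive cells of 1_11, 2_12, 2_9, 2_13 and 2_14, against 47.9, 18.5, 53.5, 24.1 and 40.9 in T-negative cells. In 1_10 the order was reversed (19.9 against 32.7). Its log2 fold change was 1.57 (SE 0.18, limma adjusted p = 4.3e-06). Its relative Id3 was at 265 and 258 on average and did not pass (limma adjusted p = 0.96). Bmp4, made by extraembryonic ectoderm and later by posterior mesoderm, did not pass either (log2 fold change -0.27, limma adjusted p = 0.90). It was at 0, 6.74, 6.86, 4.24, 22.9 and 8.25 CPM in T-positive and 6.45, 19.7, 45.6, 16.1, 4.10 and 6.75 in T-negative cells of 1_10, 1_11, 2_12, 2_9, 2_13 and 2_14. It was thus lower in 4 libraries and higher in 2_13 and 2_14, and without those 2 it passed as lower (-2.18, limma adjusted p = 0.0014). Elf5, a marker of extraembryonic ectoderm, reached 14.2 CPM in the highest T-negative sum. The part of extraembryonic ectoderm cells in this fall of Bmp4 was not tested. Of 6 Notch genes tested, Dll3, a ligand, and Hes1, a repressor, were higher by 0.91 and 0.81. Neither passed without 2_13 and 2_14. Among 11 Eph receptors and ephrins tested, which mediate repulsion between neighbouring cells, Efna3, Epha2, Epha4, Efnb3 and Epha1 were higher and none was lower. Without 2_13 and 2_14, Epha2 and Epha1 passed.

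Of 26 epiblast and pluripotency genes tested, 12 were lower and 2 higher, and the median was -0.36. Utf1, a chromatin-bound pluripotency factor, was at 504, 211, 566, 496, 301 and 299 CPM in T-positive and 709, 518, 967, 723, 674 and 717 in T-negative cells of 1_10, 1_11, 2_12, 2_9, 2_13 and 2_14. It was lower in 6 of 6 libraries, with a log2 fold change of -0.93 (SE 0.08, limma adjusted p = 7.3e-08). Slc7a3, a cationic amino acid transporter, fell by 0.97 with no overlap (92.7 to 261 against 342 to 387). The POU factor Pou3f1 (Oct6) fell by 0.84, Sox3 by 0.78, Dppa4 by 0.78, Foxd3 by 0.66 and Zic5 by 0.33. Foxd3 was higher in the T-positive cells of 2_9 (74.7 against 68.5). Of 25 alternative settings, Dppa4 no longer passed in 12, Foxd3 in 7, Zic5 in 6, Sox3 in 5 and Pou3f1 in 1. Without 2_13 and 2_14, 8 of the 26 genes were lower and 1 (Nanog) higher. Foxd3, Zic5, Fgf4 and L1td1 then no longer passed. Otx2, the homeobox factor of anterior epiblast, was at 327 to 480 in T-positive and 507 to 565 in T-negative cells, without overlap, and fell by 0.49 (SE 0.06, limma adjusted p = 1.3e-05). The de novo methyltransferases Dnmt3a and Dnmt3b fell by 0.51 and 0.40, which left 2 of 6 DNA methylation enzymes tested lower.

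Nanog rose, unlike the 12 genes of its list that fell. It was at 186, 221, 240, 172, 163 and 200 in T-positive and 109, 54.9, 65.1, 126, 108 and 69.6 in T-negative cells of 1_10, 1_11, 2_12, 2_9, 2_13 and 2_14. The groups did not overlap, and the log2 fold change was 1.12 (SE 0.15, limma adjusted p = 3.6e-05). After thinning, Nanog was found in 67.3% ± 11.3 of T-positive and 47.5% ± 11.1 of T-negative cells (SD, n = 6), beside 26.2% of the visceral endoderm gate cells. Sox2, the partner of Pou5f1, was lower in 5 of 6 libraries but did not pass (log2 fold change -0.38, SE 0.12, limma adjusted p = 0.086). It was at 115, 37.1, 161, 99.6 and 70.4 in T-positive against 124, 108, 193, 125 and 119 in T-negative cells of 1_10, 1_11, 2_12, 2_13 and 2_14, and at 104 against 87.8 in 2_9. Sox2 passed in 7 of 25 alternative settings.

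Epithelial genes were lower in 6 of 16 tested (Pdpn, Krt18, Cldn7, Cldn6, Epcam and Cdh1) and higher in none, with a median of -0.42. Cdh1 (E-cadherin) was at 258, 376, 291, 248 and 237 in T-positive and 319, 453, 338, 355 and 328 in T-negative cells of 1_11, 2_12, 2_9, 2_13 and 2_14, while in 1_10 the values were 405 and 395. Its fall was 0.32 (SE 0.06, limma adjusted p = 0.0042). Of 9 mesenchymal genes tested, Cdh11, Snai1, Fn1 and Mmp14 were higher, with a median of 0.76 for the list. Cdh11 averaged under the filter's level of 4.68 CPM in T-negative sums and reached it in every T-positive sum. It so entered the test through the group where it was higher. The fibronectin gene Fn1 was at 281 and 211 in T-positive cells of 2_13 and 2_14, against 62.9 and 62.4 in T-negative cells. In the other 4 libraries its T-positive values were 48.4 to 70.8 against 36.9 to 54.1. Cdh2 (N-cadherin) did not pass (0.84, limma adjusted p = 0.070). It was higher in 2_13 and 2_14 (26.4 and 38.5 against 12.3 and 12.7) and lower in 2_9 (9.34 against 17.1). Without 2_13 and 2_14, Cdh1 and Fn1 did not pass (limma adjusted p = 0.43 and 0.64) and Krt18 was the 1 epithelial gene of 15 that did.

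**Figure D3:**
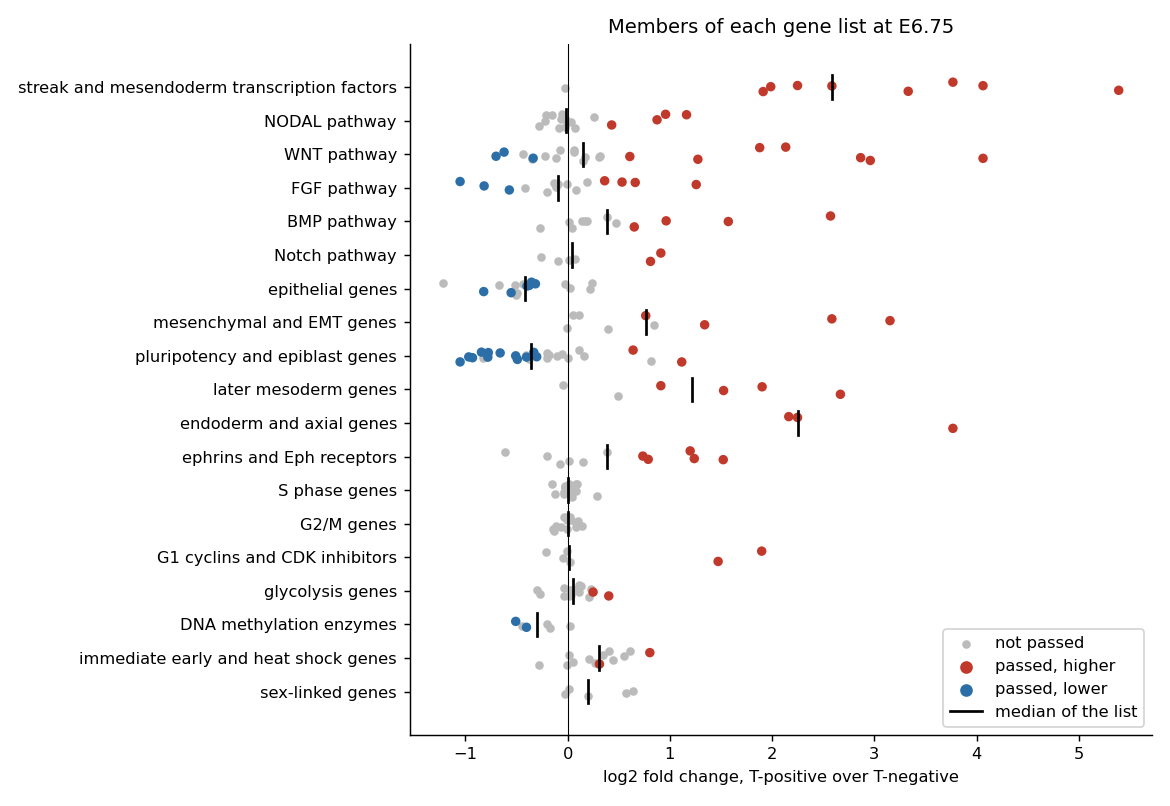
Log2 fold change (T-positive over T-negative, 6 libraries) of each tested member of the lists with at least 3 tested members. Red and blue points passed an adjusted p of 0.05, grey points did not, and the black line is the list's median, which is -0.36 for epiblast genes and -0.42 for epithelial genes. In the streak list 4 of 9 tested members averaged under the low-count filter's level in T-negative sums. The same held for 3 of 21 in the WNT list, 1 of 9 in the mesenchymal list and 2 of 3 in the endoderm and axial list.

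Of the 6 later mesoderm genes tested, Apln, Etv2, Ifitm1 and Dll3 were higher. Without 2_13 and 2_14, Apln alone of 5 passed. Etv2, an ETS factor of blood and endothelial precursors, was at 82.1 CPM in the T-positive cells of 2_14 and at most 13.7 in those of the other libraries, and its log2 fold change was 1.90 with 2_14 and 0.71 without it (limma adjusted p = 0.39). Ifitm1 was higher in 4 libraries and lower in 1_11 (11.8 against 17.4) and 2_12 (3.43 against 9.50). Apln, a peptide ligand for the apelin receptor of migrating mesendoderm, was at 42.8, 101, 45.0, 107 and 117 in T-positive cells of 1_10, 2_12, 2_9, 2_13 and 2_14 and at 8.42 in 1_11, against 4.61 to 18.2 in T-negative cells, with a log2 fold change of 2.67 (SE 0.23, limma adjusted p = 6.6e-08). The posterior genes Tbx6, Cdx2 and Hoxb1 averaged at most 2.09 CPM in either gate and were not tested. No member of the anterior neural, Hox and posterior, germ cell, visceral endoderm or blood lists reached the filter, and the 1 extraembryonic ectoderm marker that did was not called.

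None of the 16 S phase genes or the 16 G2/M genes passed, and their medians were 0.0038 and 0.0024. Over all genes tested 3.46% passed, so the absence of calls does not set these 2 lists apart. Of 6 G1 cyclins and CDK inhibitors tested, 2 were higher and none lower. Ccnd2, a G1 cyclin, was at 18.5 to 89.2 in T-positive and 6.96 to 18.2 in T-negative cells, without overlap, with a log2 fold change of 1.90 (SE 0.19, limma adjusted p = 5.8e-07). Cdkn1a (p21), an inhibitor of cyclin-dependent kinases, rose in 6 of 6 libraries by 1.47 (SE 0.23, limma adjusted p = 0.0002). Of 18 glycolysis genes, Slc2a3 and Hk2 were higher, but they no longer passed in 13 and 20 of 25 alternative settings. Without 2_13 and 2_14, none of the 18 passed. Of 13 immediate early and heat shock genes, Hspa1a and Egr1 were higher, of which Hspa1a changed sign (-0.12) with no replicate block. Egr1 no longer passed in 10 of 25 alternative settings. Without 2_13 and 2_14, 4 of the 13 were higher (Jun, Egr1, Dusp1 and Hspa1a). Hspa1a was at 2.74 and 3.54 CPM in the T-positive cells of 2_13 and 2_14 and at 20.6 to 60.3 in those of the other libraries. No sex-linked gene of the 5 tested passed, against 3.46% of all genes tested.

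Outside the lists, the largest rises also took in Pcdh7, a protocadherin (3.50), Grrp1 (2.82) and Rreb1, a zinc finger factor downstream of RAS signalling (2.56). Pcdh7 and Grrp1 averaged 2.14 and 2.18 CPM in T-negative sums, under the filter's level of 4.68 CPM, and reached that level in every T-positive sum. They so entered the test through the group where they were higher. The 12 largest falls were mostly of genes with low levels. Coro2b, an actin-binding coronin, fell by 1.62, from 11.7 to 4.23 CPM on average. Crabp2, which carries retinoic acid to its receptors, was at 10.3 to 12.7 in T-positive and 17.5 to 33.8 in T-negative cells and fell by 1.08 (SE 0.18, limma adjusted p = 0.00067). Slc39a14, Smagp, Ephb1, Slc27a2, Gm12688, Ugt8a and Slc35g1 fell by 0.89 to 1.37. Coro2b and Slc39a14 averaged 4.23 and 4.50 CPM in T-positive sums, under the filter's level, and reached that level in every T-negative sum. These 2 so entered the test through the T-negative sums, where they were higher.

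Levels were then read by the number of T transcripts in the cell, in libraries with at least 3 cells of the class, as a description. Tdgf1 stood at 235 ± 46.3 CPM in cells without T (6 libraries), 345 ± 84.2 in those with 1 transcript (5 libraries), 487 ± 111 with 2 to 4 (6 libraries) and 663 ± 210 with 5 or more (4 libraries; all SD). Eomes followed the same order, at 129, 290, 345 and 728, and so did Nanog, at 88.8, 147, 195 and 238. Utf1 went the other way, from 718 to 543, 409 and 215. Mixl1 and Sp5 differed in shape: Mixl1 was at 1.87, 7.30 and 9.95 up to 4 transcripts and at 228 ± 211 above, and Sp5 at 1.84, 2.72, 3.96 and 79.5. Nodal was 51.7 without T and 92.4, 93.1 and 97 in the 3 classes with it. Cells with 1 transcript of T stood on average between T-negative cells and cells with 5 or more for Tdgf1, Eomes, Nanog and Utf1. The classes draw on different libraries, and depth was not equalised between them.

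**Figure D4:**
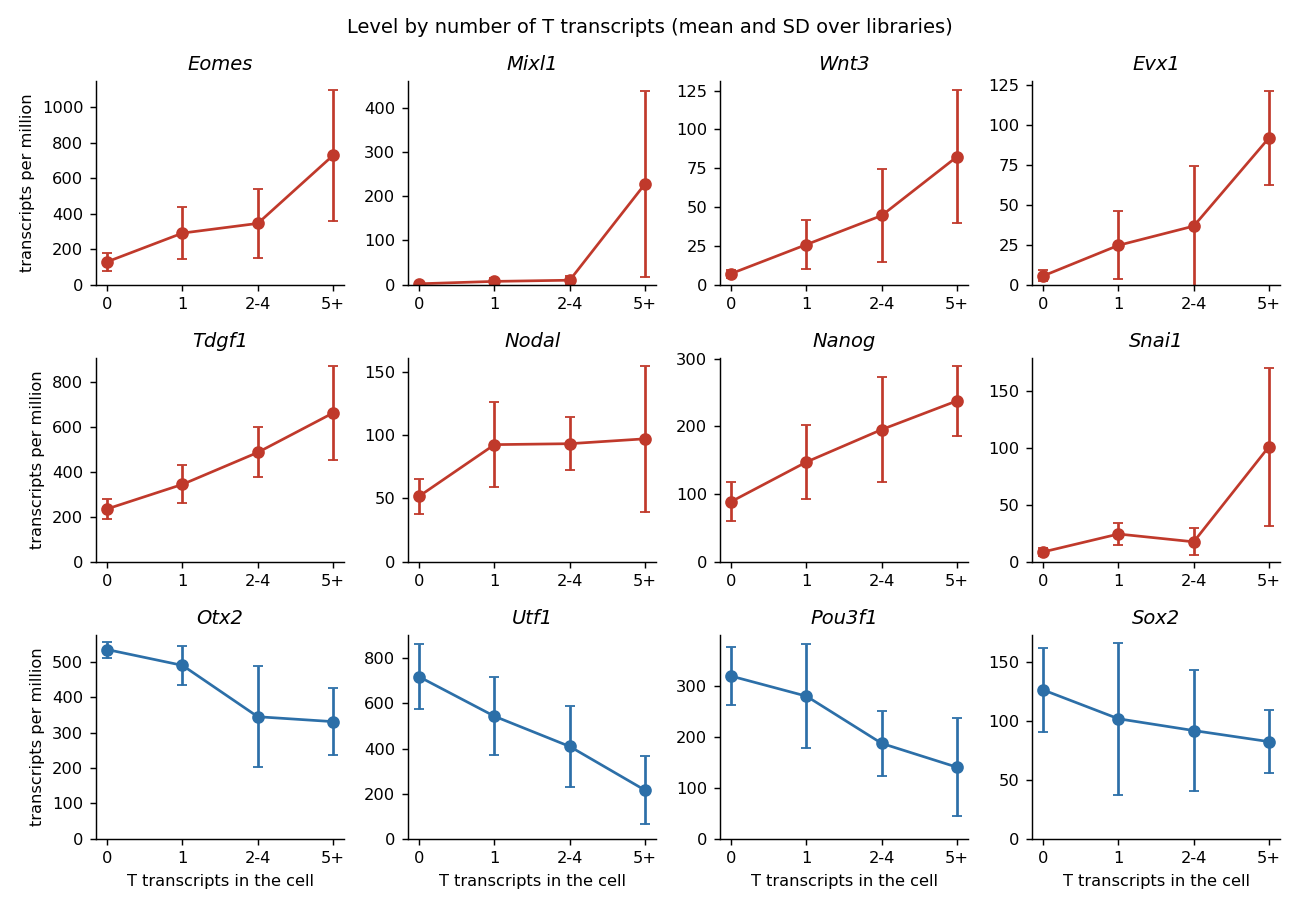
Level of 12 genes in CPM (mean and SD over 4 to 6 libraries) by the number of T transcripts in the cell (0, 1, 2 to 4, 5 or more). Red genes are streak, NODAL and WNT genes with Nanog, blue genes are epiblast genes. Lower bars that would pass below 0 are cut at the axis, and Mixl1 is near 0 in all but the last class.

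The same gate was then applied to the E7.5 libraries, which asks whether the contrast is found in cells the choice did not use. By the same rule 301 cells were kept, 216 of them T-positive, and 9 libraries with at least 3 cells in each gate entered the fit (196 T-positive and 83 T-negative cells). Of 5813 genes tested, 179 passed (3.08%), 91 higher (1.57%) and 88 lower (1.51%). Of the 332 genes that passed at E6.75, 234 could be tested at E7.5, 206 of these had the same sign, 79 passed in the same direction and none passed in the opposite one. At E7.5, Eomes rose by 1.27 (limma adjusted p = 0.0042), Sp5 by 2.55 (6.4e-05), Fst by 1.74 (0.0025), Snai1 by 1.18 (0.011) and Lefty2 by 4.003 (3.7e-05), and Utf1 fell by 1.87 (0.00043). Nanog (0.68, limma adjusted p = 0.18), Apln (1.28, 0.063) and Cdh1 (-0.10, 0.84) did not pass at E7.5. Of the 85 named genes that passed at E6.75, 50 could be tested at E7.5 and 28 of these passed. Levels were lower for some of them: Eomes averaged 122 CPM in T-positive cells at E7.5, against 467 at E6.75.

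The difference of the contrast between stages was tested as an interaction over both sets of libraries. Of 8193 genes, 37 passed (0.452%), with 5 more positive (0.061%) and 32 more negative (0.391%) at E7.5, and 22 of the 37 were among the 332. Sox2 differed, with a log2 fold change of -0.38 at E6.75 and -1.65 at E7.5 (difference -1.25, SE 0.28, limma adjusted p = 0.027), and its level in T-negative cells was 126 at E6.75 and 187 at E7.5. Otx2 also had a larger fall at E7.5 (difference -0.76, limma adjusted p = 0.041), as did L1td1 (-0.85, 0.022). Fgf4 was lower in T-positive cells at E6.75 and on average higher at E7.5, with 6.96 against 16.8 at E6.75 and 15.9 against 3.39 at E7.5 (difference 2.78, SE 0.53, limma adjusted p = 0.0057). The BMP genes Id1, Msx1 and Smad6 rose with T at E6.75 and had differences of -1.66, -2.78 and -1.86 (limma adjusted p = 0.0051, 0.0034 and 0.0051). Id1 at E7.5 averaged 112 in both gates. Lhx1 had a difference of -3.37 (limma adjusted p = 0.017), and Cdh11 one of -2.45 (0.0031). The difference did not pass for Eomes, Mixl1, Nanog or Tdgf1 (limma adjusted p = 0.79, 0.18, 0.91 and 0.92). Stage, hand picking or sorting, and the version of the protocol cannot be told apart here.

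**Figure D5:**
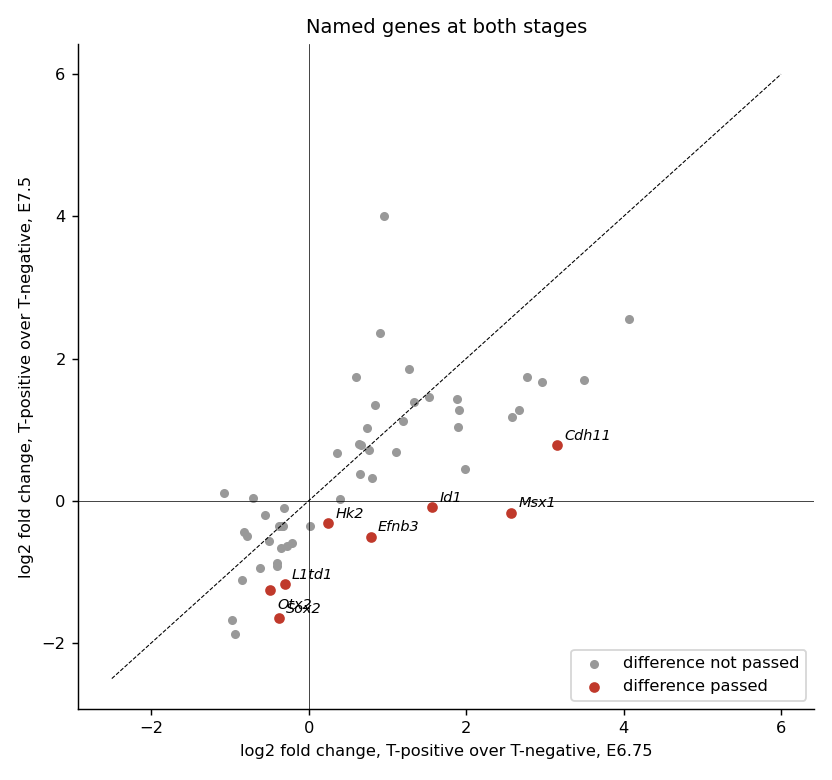
Log2 fold change (T-positive over T-negative) of the named genes tested at both stages, E6.75 on the x axis (6 libraries) and E7.5 on the y axis (9 libraries). Red points passed the test of the difference between stages, the dashed line marks equal values, and Msx1 and Id1 lie near 0 at E7.5.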

How the data were processed

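The deposited tables gave transcripts of each gene in 192 barcode columns, of which each library used 96. Every nonzero value equalled the authors' collision correction of a whole UMI number for 4096 UMI sequences (largest departure 4.09e-12), with no depth normalisation. Demultiplexing used bcl2fastq 2.17.1.14 and mapping BWA 0.6.2-r126, per the submitters' processing notes; genome build, annotation and strand use are not given in the sources used here. Values were rounded and summed per library and gate, without ERCC spike-ins and mitochondrial genes.

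The planned test was edgeR's quasi-likelihood test, but it was not used, since the unit of these columns could not be machine-checked as counts. Instead sums were fitted with limma 3.58.1 in R 4.3.3 (voom, TMM factors, low-count filter, library as block, Benjamini-Hochberg adjustment at 0.05), after checks on simulated data. Same-library sums pair because they share picking and sequencing.

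Named genes were the 12 largest rises and falls that passed with 1 sign in all libraries and averaged at least 10 CPM, every list member that passed, and a fixed set of gastrulation genes. Members and lists were chosen with earlier results of these data known. T, Pou5f1, Ttr, Apoa1 and Spink1 set the gates and were not tested. No doublet caller was run on hand-picked cells; cells above 3 times the median depth were left out as an alternative. A gene that the naming rule covers is not reported here.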

Additional observations from a re-analysis of the deposited data

Results flagged for a closer look

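Of 35 sets of 6 library values examined for a value far from the others, 2 had one, and chance gives about 1 in 20. The median ERCC share of library 1_10 was lower in T-positive cells by a difference of -0.533 percentage points, with differences of 0 to 0.126 in the other libraries. In 2_9, 2_12, 2_13 and 2_14 the median share was 0 in both gates, so the difference there was 0 as well. For Otx2, library 2_9 had a T-positive minus T-negative difference of -26.6 CPM, against -201 to -158 elsewhere.

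The T contrast differed between E7.5 and E6.75 by the interaction test for 13 named genes. The difference (E7.5 minus E6.75, log2) was -2.45 for Cdh11, -1.29 for Efnb3, 2.78 for Fgf4, -2.56 for Grrp1, -0.55 for Hk2, -1.66 for Id1, -0.85 for L1td1, -3.37 for Lhx1, -2.78 for Msx1, -0.76 for Otx2, -1.55 for Rreb1, -1.86 for Smad6 and -1.25 for Sox2.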

How the results depend on the processing

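At E6.75 the 332 calls became 117 with no replicate block (85 higher, 32 lower), 59 of 5331 genes when cells were thinned and gated again and 53 with the gates kept, 168 of 7845 with visceral endoderm genes at 0, 105 without cells holding Mesp1 or Foxa2, and 102 without both 2_13 and 2_14, the last chosen after seeing the data. Leaving out 1 library gave 187 to 360 calls, the lowest without 2_14 and 2_13 (212). Thinning tested fewer genes; of the 207 of the 332 still tested, 205 kept their sign and 53 passed. For the other settings the cause was not tested. At E7.5 the 179 calls became 487 without the low-count filter (197 higher, 290 lower), 40 when thinned, and 118 to 193 without 1 library (118 without library 4). The 37 interaction calls became 9 when thinned and 28 to 49 without 1 library. The mean T-positive share was 13.2% with at least 5 T transcripts required. Hspa1a and Smad1 changed sign in 1 setting each: Hspa1a was at -0.12 with no replicate block and Smad1 at -0.031 without cells holding Mesp1 or Foxa2. Of 85 named genes that passed, 27 passed in every setting in which they could be tested, among them Mixl1, Eomes, Evx1, Sp5, Wnt3, Axin2, Snai1, Fgf8, Tdgf1, Nanog, Otx2 and Utf1. The DESeq2 alternatives were not run, as the count unit could not be machine-checked. At this depth, genes near 10 CPM rest on a few transcripts in the T-positive sums of 1_10, 1_11 and 2_12.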
